A study of Mus musculus with 12 samples.

Results

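The data were RNA-seq read counts per gene from bone marrow-derived macrophages (BMDM), which are macrophages grown in culture from mouse bone marrow with the growth factor M-CSF. Described here are 10 genes of the guanylate-binding protein (GBP) and immunity-related GTPase (IRG) families, namely Gbp2, Gbp3, Gbp5, Gbp7, Gbp9, Irgm1, Irgm2, Igtp, Iigp1 and Ifi47. They were taken by symbol from the 43280 genes of the deposited table, and all 10 were among the 12086 genes that passed the filter on low values. BMDM came from C57BL6 wild type (wt) mice or from Treml4-/- mice, which lack the myeloid receptor gene Treml4 in all cells. They were unstimulated, having received vehicle (M0), or were treated with 100 ng/ml lipopolysaccharide (LPS), a component of the outer membrane of Gram-negative bacteria, for 8 h (M1-8 h) or 12 h (M1-12 h). Each of the 6 conditions had 2 biological replicates, which gave 12 libraries. The labels do not say whether the replicates came from separate animals, so p-values measure the spread between these samples only.

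GBP and IRG proteins are GTPases that macrophages make in response to interferons, and they act inside the cell rather than as secreted factors. Both families gather on the membranes of vacuoles that hold bacteria or parasites such as Toxoplasma and Chlamydia, and GBP also coat bacteria in the cytosol. LPS is sensed by Toll-like receptor TLR4, which through the adaptor TRIF leads to secretion of interferon beta. Interferon beta then acts back on the same cells through its receptor and factors that bind the interferon-stimulated response element (ISRE), while interferon gamma acts at the gamma-activated site (GAS).

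Upstream of the start sites, 7 of the 8 member genes with a RefSeq promoter window held an ISRE core within 250 bases. The ISRE core was searched as GAAA, any 2 bases and GAAA again, or the same on the other strand (TTTC, any 2 bases, TTTC). In comparison, 2.98% of all 32851 windows of this length, which came from 27025 genes, held one. The 8 member genes had 9 windows. The GAS core TTCNNNGAA, which is its own reverse complement, was in the windows of Gbp5, Gbp7, Igtp and Irgm2, and in 7.02% of all windows. A kappaB-type motif, GGGA, any 2 bases and TTCC on either strand, was found only in the Gbp5 window among these 8 genes, and in 1.21% of all windows. A match describes the letters only. Start sites are those of RefSeq, and the stretches shown for Gbp2, Gbp5, Irgm1 and Irgm2 lie at least partly inside the gene as annotated by GENCODE. The 30 bases around the ISRE core closest to each start site are shown because they carry the motif shared by these 7 genes. Each of them was called higher after LPS, and the part of the motif in this was not tested. They are written 5′ to 3′ on the strand of the gene, with the ISRE core and, where it falls in the stretch, the GAS core in capitals, from RefSeq on build GRCm38.p6.
Gbp2, chr3:142620594-142620623, plus strand: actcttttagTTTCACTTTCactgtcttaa
Gbp3, chr3:142559992-142560021, plus strand: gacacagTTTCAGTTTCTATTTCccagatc
Gbp5, chr3:142496759-142496788, plus strand: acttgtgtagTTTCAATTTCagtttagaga
Gbp7, chr3:142530273-142530302, plus strand: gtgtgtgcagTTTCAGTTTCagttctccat
Irgm1, chr11:48871428-48871457, minus strand: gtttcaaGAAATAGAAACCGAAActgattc
Igtp, chr11:58199506-58199535, plus strand: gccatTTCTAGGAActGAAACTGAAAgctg
Irgm2, chr11:58214897-58214926, plus strand: gccatTTCCAGGAActGAAACTGAAAgctg
Gbp3 and Irgm1 each held 2 overlapping ISRE cores in this stretch. The Igtp and Irgm2 stretches were identical at 29 of 30 bases and differed by T9C, with Igtp first and positions counted from the 5′ end. In both, the GAS core lay before the ISRE core with 2 bases between them. Ifi47 had none of these motifs in its window. Gbp9 and Iigp1 had no window.

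In the GENCODE M21 annotation of GRCm38, Gbp5, Gbp7, Gbp3 and Gbp2 lie in this order on the plus strand of chromosome 3. Gbp5 spans 142493978 to 142522344, Gbp7 142530342 to 142550149, Gbp3 142560026 to 142573209 and Gbp2 142620602 to 142638008. Gbp9 is on the minus strand of chromosome 5 from 105077630 to 105139539. On chromosome 11, Irgm1 spans 48861968 to 48871683 on the minus strand and Ifi47 49076587 to 49096974 on the plus strand. Igtp, from 58199556 to 58207591, and Irgm2, from 58199618 to 58222782, are both on the plus strand of chromosome 11 and share 162 bases of exon, which are 8.01% of the exon bases of Igtp and 4.39% of those of Irgm2. Gbp7 shares 637 exon bases with the gene model Gm43802, which are 11.3% of its own, and 10.2% of its stretches of 100 bases also occur in Gm43802 or Gbp3. Ifi47 shares 111 exon bases with Olfr56, which are 4.49% of its own, and Gbp9 shares 60 with Gbp8 and Gbp4, which are 1.16%. Reads from these shared bases could have been split or dropped in counting, so the levels of Igtp, Irgm2, Gbp7, Ifi47 and Gbp9 are less certain. Apart from Igtp, Irgm2 and Gbp7, the genes shared at most 1.74% of their stretches of 100 bases with another gene.

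Library totals ran from 48008751 to 58500792 counted reads. Treml4 had 198 to 663 reads in the 6 wt libraries and 0 in each of the 6 Treml4-/- libraries. Of 7 macrophage markers, 6 were in the table, and their summed level ran from 18630.1 to 25435 CPM (read counts scaled to 1e6 per library) at M0 and from 8113 to 11112 CPM after LPS. The 5 neutrophil markers summed to between 4.34 and 55.2 CPM and the 3 fibroblast markers to at most 5.23 CPM, and both sums were lowest at M1-12 h. Each marker of T, B, natural killer, dendritic, mast and erythroid cells was below 1 CPM in every library, and the part of other cells in the results was not tested. In bulk RNA, fewer cells that express a gene and less RNA per cell cannot be told apart.

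The Treml4-/- replicates at M1-8 h stood apart from each other for several of the 10 genes. Iigp1 and Gbp7 differed by 1.04 and 0.99 between them on the log2(CPM + 1) scale, with replicate 2 higher. Gbp3 and Gbp9 were also higher in replicate 2, by 0.45 and 0.36, while Igtp was lower by 0.30, Gbp2 by 0.21 and Ifi47 by 0.16. With a limit of 1.4-fold, 2 of the 10 genes differed between these replicates, against 6.21% of all genes tested, and 0 of 10 differed between the replicates of any other condition. There, the shares of all genes past this limit were 8.46% in wt and 0.836% in Treml4-/- cells at M0, 6.26% in wt at M1-8 h, and 4.82% in wt and 0.331% in Treml4-/- cells at M1-12 h. Of the genes that were higher in replicate 2, the GC content of the longest transcript was 39.3% in Iigp1, 41.7% in Gbp7, 42.1% in Gbp9 and 45.9% in Gbp3, and in the other 6 genes it was 45.6% to 49.5%. Over all genes, the median log2 difference of replicate 2 from replicate 1 was 0.22 in the fifth of genes with the lowest GC content, up to 43.9%, and -0.07 in the fifth with the highest. The part of GC content in the difference was not tested. For calls that changed, and for Iigp1, Gbp7 and Gbp9, values are therefore also given with either of these libraries left out.

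**Figure D1:**
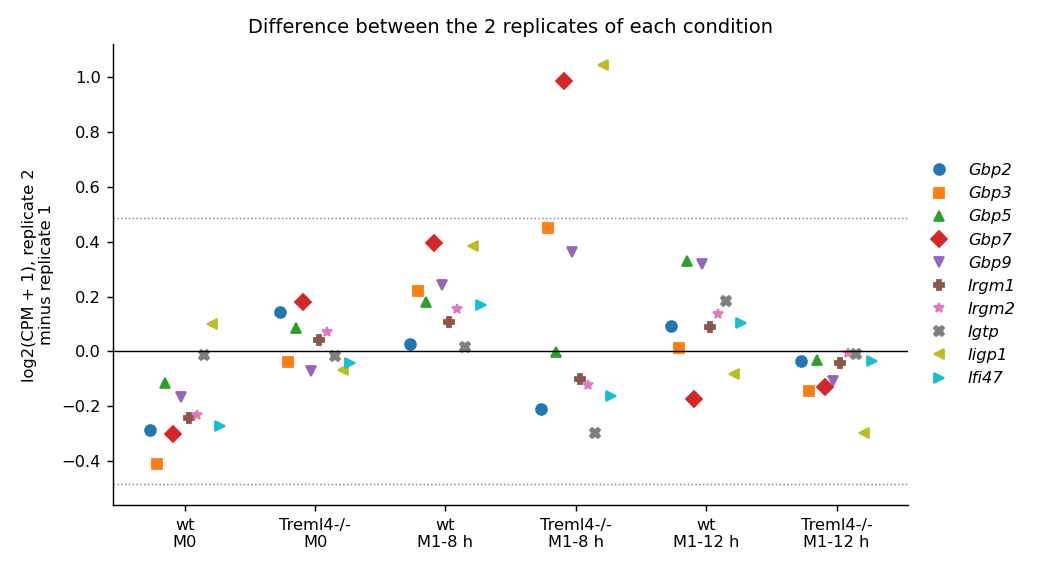
Difference between the 2 replicates of each condition for the 10 genes, as replicate 2 minus replicate 1 on the log2(CPM + 1) scale, with 1 symbol per gene and dotted lines at 1.4-fold. Only Iigp1, at 1.04, and Gbp7, at 0.99, lie past the dotted lines, both in Treml4-/- macrophages at M1-8 h.

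In unstimulated macrophages all 10 genes had reads, but their levels differed widely. Levels of different genes were compared as CPM per kilobase of exon, counting the exon bases of all transcripts of a gene. These exceeded the longest transcript in some genes, such as Irgm1 (5810 against 3832 bases), Gbp5 (6637 against 3756) and Iigp1 (5823 against 3121). In Gbp2 both were 2516. The order of the genes therefore depends on the length used, and with the longest transcript Irgm1 would come before Gbp2 at M0. By exon bases, Gbp2 was highest in wt M0 cells, at 11.6 CPM per kb (range of the 2 libraries 10.4 to 12.8). It was followed by 4 genes of the IRG family, Irgm1 at 8.18, Igtp at 7.22, Irgm2 at 7.01 and Ifi47 at 4.56 CPM per kb, of which Igtp and Irgm2 overlapped in their ranges. Gbp3 had 2.59 CPM per kb, whereas Gbp9, Gbp5 and Gbp7 lay between 0.645 and 0.322 CPM per kb, with overlapping ranges for Gbp9 and Gbp5. Iigp1 was lowest, at 0.0988 CPM per kb. The order of the 10 genes was the same in Treml4-/- M0 cells, from 11.1 CPM per kb for Gbp2 to 0.0438 for Iigp1.

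LPS for 8 h against M0 asks which of these genes respond to the stimulus. All 10 rose in wt and all 10 in Treml4-/- macrophages, where 16.3% and 17.7% of the genes tested were called higher. A call needed an adjusted p under 0.05 in limma with Benjamini-Hochberg adjustment and a change of at least 1.4-fold. The median log2 fold change of the 10 genes was 6.05 in wt, from 3.94 to 8.80, and 6.18 in Treml4-/- cells, from 3.90 to 9.54. Over all genes tested the medians were -0.74 and -0.70. These all-gene medians depended on the scaling to library size. With median of ratios scaling they were -0.03 and -0.05, and the calls in wt moved from 1971 higher and 7319 lower to 3734 each way. The 10 genes were called higher under both scalings, with a wt median of 6.76 under the second. Among the 12086 genes ordered by log2 fold change in wt, Gbp5 was at place 12, Iigp1 at 13 and Gbp2 at 20, and the lowest of the 10, Irgm2, was at place 200.

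Gbp2 encodes a GBP that carries a lipid anchor and gathers on pathogen vacuoles. Its RNA had 32.2 and 26.2 CPM in the wt M0 libraries, 8454 and 8617 CPM after 8 h of LPS, and 4658 and 4965 CPM after 12 h. The Treml4-/- libraries had 26.5 and 29.4, then 8068 and 6978, then 4760.4 and 4646 CPM. In both genotypes the LPS libraries lay far above M0, and those at M1-8 h were all above those at M1-12 h. The mean CPM after 8 h was 292 times the M0 mean in wt, a rise of 8.15 ± 0.110 in log2(CPM + 1) (SE, adjusted p = 7.1e-13, limma). It was 269 times the M0 mean in Treml4-/- cells, where the rise was 8.02 ± 0.110 (SE, adjusted p = 6.4e-13, limma).

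Gbp5, another lipid-anchored GBP that has been linked to inflammasome activation, started much lower. It had 4.28 and 3.88 CPM in wt M0 libraries, 2126 and 2407 CPM after 8 h, and 1587 and 1996 CPM after 12 h. The Treml4-/- libraries had 3.14 and 3.39 CPM at M0, then 2304 and 2303, then 1619.9 and 1586 CPM. It thus had a larger log2 fold change than Gbp2, 8.80 ± 0.109 (SE) in wt and 9.08 ± 0.109 (SE) in Treml4-/- cells at M1-8 h.

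Iigp1, also called Irga6, is an IRG that binds to vacuole membranes and helps to disrupt them, and it was close to absent before LPS. Its RNA had 27 and 32 reads in the wt M0 libraries, or 0.521 and 0.629 CPM, and 14 and 12 reads in the Treml4-/- M0 libraries, or 0.285 and 0.224 CPM. At M1-8 h it had 572 and 747 CPM in wt and 649 and 1341 CPM in Treml4-/- cells. At M1-12 h it had 683 and 645 CPM in wt and 718 and 583 CPM in Treml4-/- cells, so that the 2 genotypes overlapped at both times. The log2 fold change at M1-8 h was 8.70 ± 0.259 (SE) in wt and 9.54 ± 0.259 (SE) in Treml4-/- cells, where it was 10.06 without replicate 1 at M1-8 h and 9.02 without replicate 2. Because the log2(CPM + 1) scale compresses such a low baseline, the ratio of mean CPM was larger, 1148 in wt and 3904 in Treml4-/- cells. These ratios rest on the few reads at M0, and that of Treml4-/- cells also on 1 library, since it was 5260 without replicate 1 at M1-8 h and 2548 without replicate 2.

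Ifi47, also called Irgd, is likewise counted among the IRG effectors. It had 12.4 and 10.1 CPM in the wt M0 libraries, 1055 and 1185 after 8 h, and 553 and 594 after 12 h. Its Treml4-/- libraries had 13.0 and 12.6 CPM at M0, then 1043 and 933, then 546 and 533 CPM. Its time course thus had the shape of that of Gbp2, and its log2 fold change after 8 h was 6.52 ± 0.104 (SE) in wt and 6.16 ± 0.104 (SE) in Treml4-/- cells.

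The 3 regulatory IRG genes, Irgm1, Irgm2 and Igtp (also called Irgm3), encode proteins that sit on the cell's own membranes and keep the effectors from acting there. Among the member genes described here, they had the highest M0 levels apart from Gbp2. Together with Gbp9, they also had the smallest log2 fold changes of these member genes at M1-8 h in wt. Small rises were not limited to them, since other tested genes of the GBP and IRG families ranged from 1.62 (Gbp8) to 8.01 (Gbp4) there. Irgm1 had 51.6 and 43.4 CPM in wt M0 libraries, 1092 and 1176 after 8 h, and 816 and 868 after 12 h. The Treml4-/- libraries had 48.2 and 49.6, then 1177 and 1099, then 875 and 849.8 CPM. The log2 fold changes at M1-8 h in wt were 4.55 ± 0.0930 for Irgm1, 3.94 ± 0.0987 for Irgm2 and 5.15 ± 0.10 for Igtp (SE, n = 2 libraries per condition).

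Irgm2 had 28.0 and 23.7 CPM in the wt M0 libraries, 389.7 and 434 after 8 h, and 533 and 586 after 12 h. Without Treml4 it had 25.4 and 26.7, then 421 and 386, then 559 and 557 CPM. Unlike those of Irgm1, all 4 of its libraries at M1-12 h lay above all 4 at M1-8 h. Igtp ran from 14.5 to 15.7 CPM in the 4 M0 libraries, from 489 to 601 CPM at M1-8 h and from 622 to 707 CPM at M1-12 h. Igtp libraries at the later time were thus also all above those at M1-8 h.

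Gbp3, Gbp7 and Gbp9 are the remaining GBP genes, of which Gbp7 has been linked to the assembly of the phagocyte oxidase. Gbp3 had 9.80 and 7.12 CPM in the wt M0 libraries, 604 and 705 after 8 h, and 691 and 696 after 12 h. Its Treml4-/- libraries had 10.4 and 10.1, then 702 and 960.2, then 684 and 618 CPM. Replicate 2 of the Treml4-/- cells at M1-8 h was the highest of its 12 libraries, and the others after LPS lay within 604 to 705 CPM.

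Gbp7 had 2.10 and 1.51 CPM in wt M0 libraries, 153 and 201 after 8 h, and 317 and 281 after 12 h. Its Treml4-/- libraries had 1.89 and 2.28, then 166 and 329, then 286 and 261 CPM. The replicates at M1-8 h in Treml4-/- cells therefore lay on either side of both at M1-12 h. Gbp9 ran from 3.09 to 4.22 CPM in the 4 M0 libraries and from 169 to 211 CPM in 6 of the 8 LPS libraries, and the Treml4-/- libraries at M1-8 h were above this with 227 and 293 CPM.

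**Figure D2:**
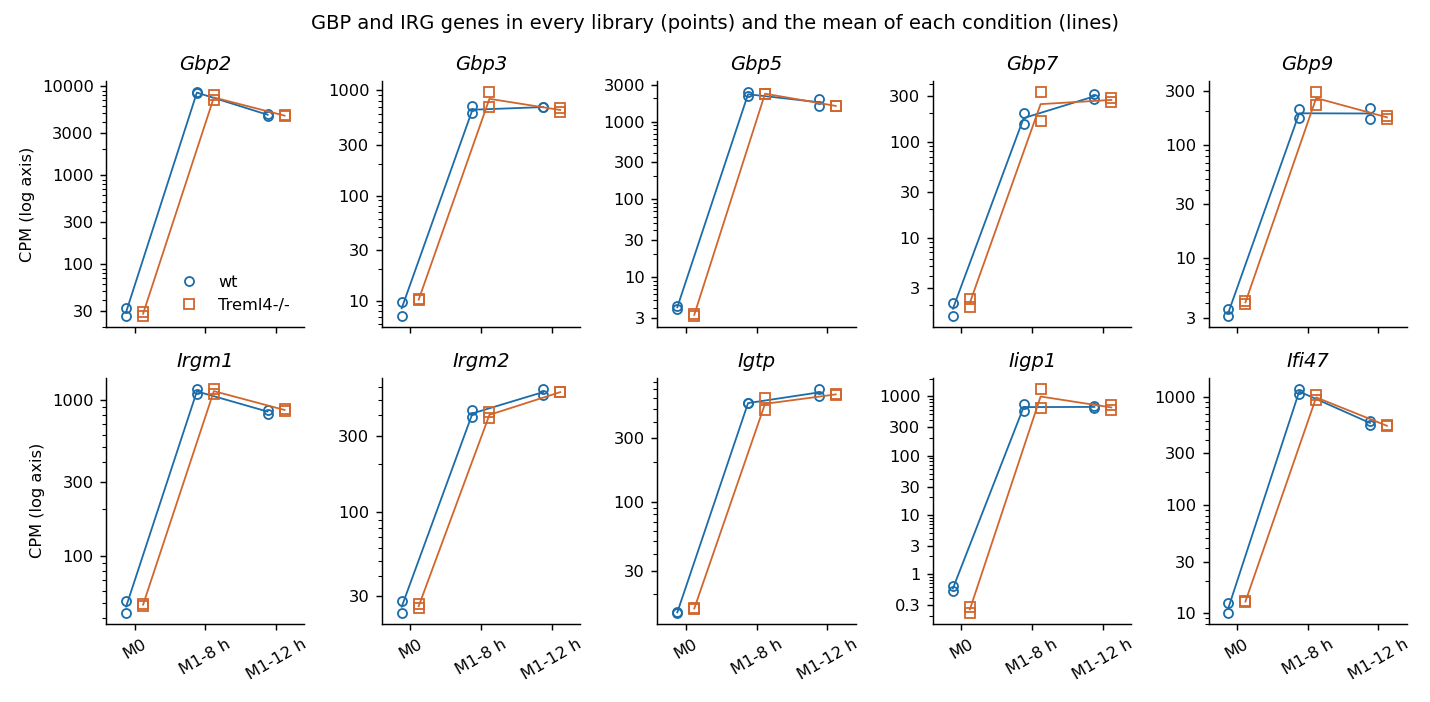
CPM of each of the 10 genes in every library (points, log axis with its own range in each panel) at M0, M1-8 h and M1-12 h in wt (circles) and Treml4-/- macrophages (squares), with lines through the mean of each condition. Every gene lies far above M0 after LPS, and Gbp2 and Ifi47 turn down from M1-8 h to M1-12 h while Irgm2 does not.

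At M1-12 h all 10 genes were again called higher than at M0 in both genotypes, against 16.2% of genes tested in wt and 16.1% in Treml4-/- cells. The median log2 fold change of the 10 was 5.88 in wt, from 4.12 for Irgm1 to 8.72 for Iigp1, and 5.57 in Treml4-/- cells, from 4.11 to 9.01. Comparisons at M1-8 h and M1-12 h share the M0 libraries and are not independent. Each call of the 10 genes against M0 held in each alternative that was run.

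**Figure D3:**
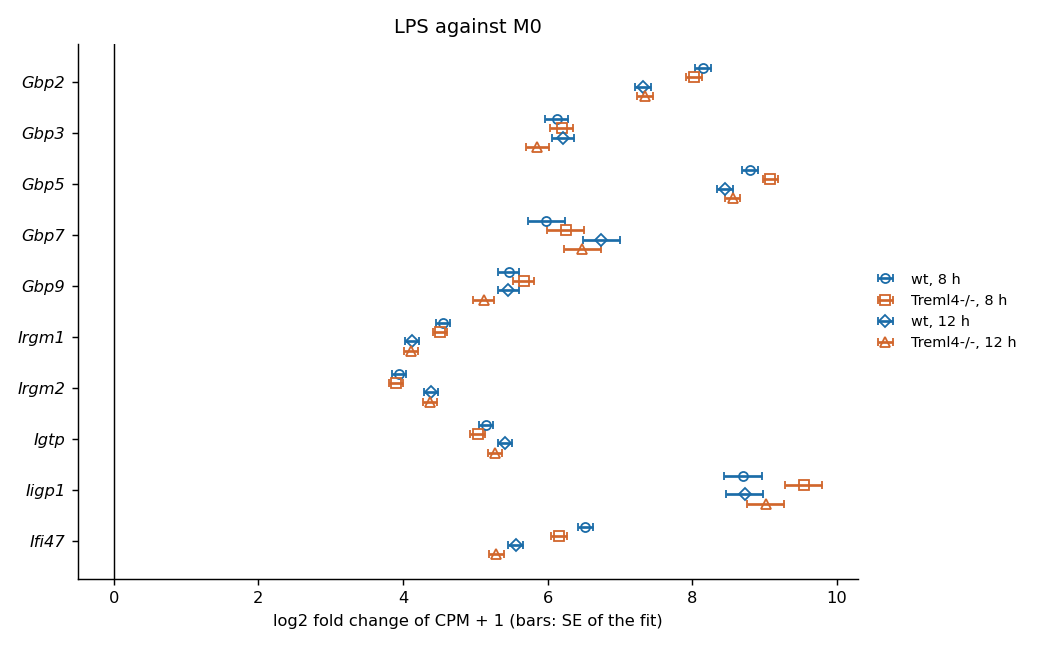
log2 fold change of CPM + 1 against M0 for the 10 genes at 8 h and 12 h of LPS in wt and Treml4-/- macrophages, with bars for the SE of the fit. Values run from 3.90 for Irgm2 to 9.54 for Iigp1, both in Treml4-/- cells at 8 h, and none is near 0.

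The 10 genes together took 0.0134% to 0.0159% of the counted reads at M0, 1.51% to 1.62% at M1-8 h and 1.04% to 1.15% at M1-12 h. At M0 the IRG genes had more of the reads than the GBP genes, 0.00924% to 0.0107% against 0.00418% to 0.00520%. At M1-8 h this was the other way round, with 1.09% to 1.21% for the 5 GBP and 0.366% to 0.425% for the 5 IRG genes. Gbp2 alone gave 46.2% to 55.7% of the reads of the 10 genes at M1-8 h. Shares of reads also grow with gene length. Per kilobase of exon, Gbp2 was at 3393 CPM per kb in wt at M1-8 h, followed by Ifi47 at 453, Gbp5 at 341 and Igtp at 273. Below these were Gbp3 at 200.5, Irgm1 at 195, Iigp1 at 113 and Irgm2 at 112 CPM per kb, in which Gbp3 overlapped Irgm1 and Iigp1 overlapped Irgm2. Gbp9, at 36.9, and Gbp7, at 31.5 CPM per kb, were lowest and overlapped. At M1-12 h in wt, Gbp2 was still first with 1912 CPM per kb, but Igtp was then second at 329 and Ifi47 was in the fourth place at 232, overlapping Gbp5 at 270.0 CPM per kb. This order too depends on the length used, and with the longest transcript Gbp5 would come before Igtp at M1-12 h.

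M1-12 h against M1-8 h asks whether the induced levels were held. In wt, 2 genes fell and 1 rose, where 17.6% of genes tested were called lower and 14.0% higher. Ifi47 fell by 0.96 ± 0.104 in log2(CPM + 1) (SE, adjusted p = 3.5e-05, limma) and Gbp2 fell by 0.83 ± 0.110 (SE, adjusted p = 0.00014, limma). Gbp7 rose by 0.76 ± 0.255 (SE, adjusted p = 0.030, limma). In Treml4-/- cells 4 genes fell and 0 rose, against 19.4% of genes called lower and 12.9% higher. They were Ifi47, by 0.87 ± 0.104 (adjusted p = 7.3e-05, limma), Gbp2, by 0.67 ± 0.110 (adjusted p = 0.00055, limma), Gbp9, by 0.55 ± 0.144 (adjusted p = 0.0090, limma), and Gbp5, by 0.52 ± 0.109 (adjusted p = 0.0025, limma), all with SE. Gbp5 was also lower in wt, at -0.35 ± 0.109 (SE, adjusted p = 0.023, limma), which passed the adjusted p and missed the 1.4-fold minimum. The median of the 10 was 0.01 in wt and -0.46 in Treml4-/- cells, beside -0.04 and -0.08 over all genes tested.

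The 3 regulatory IRG genes changed by less than the fold limit between the LPS times with scaling to library size. Irgm1 was lower by 0.43 ± 0.0930 in wt and 0.40 ± 0.0930 in Treml4-/- cells (adjusted p = 0.0032 and 0.0049, limma), and Irgm2 was higher by 0.44 ± 0.0987 and 0.47 ± 0.0987 (adjusted p = 0.0039 and 0.0027, limma). Both thus passed the adjusted p and missed the 1.4-fold minimum. Irgm2 was called higher with quantile normalization in wt (0.54) and in Treml4-/- cells (0.56), and with median of ratios scaling in Treml4-/- cells (0.54). Igtp was higher by 0.26 ± 0.10 and 0.24 ± 0.10 (adjusted p = 0.051 and 0.067, limma).

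Calls of Gbp2 and Ifi47 between the LPS times held in each alternative and each set of libraries tried, in both genotypes. Gbp7 in wt was no longer called without replicate 1 at M1-8 h (0.57), without either replicate at M1-12 h (0.68 and 0.85), or with no filter on low values (adjusted p = 0.28, limma). In wt, Gbp5 was called lower, by -0.51, without replicate 2 at M1-12 h, and Irgm2 was called higher without replicate 1 at M1-12 h (0.51) or replicate 2 at M1-8 h (0.52). In Treml4-/- cells several other calls rested on 1 of the libraries at M1-8 h. Without replicate 1, 7 of the 10 genes were called, since Iigp1 (-1.05), Gbp3 (-0.56) and Irgm2 (0.53) were added. Without replicate 2, Gbp9 (-0.37) was no longer called and Gbp7 (0.72, adjusted p = 0.011, limma) was called higher, as it was in wt. Gbp9 was also not called without replicate 2 at M1-12 h (-0.50), with no filter on low values (adjusted p = 0.096, limma) or with another scaling (-0.48 by median of ratios and -0.41 by quantile normalization), nor was Gbp5 by median of ratios (-0.45).

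**Figure D4:**
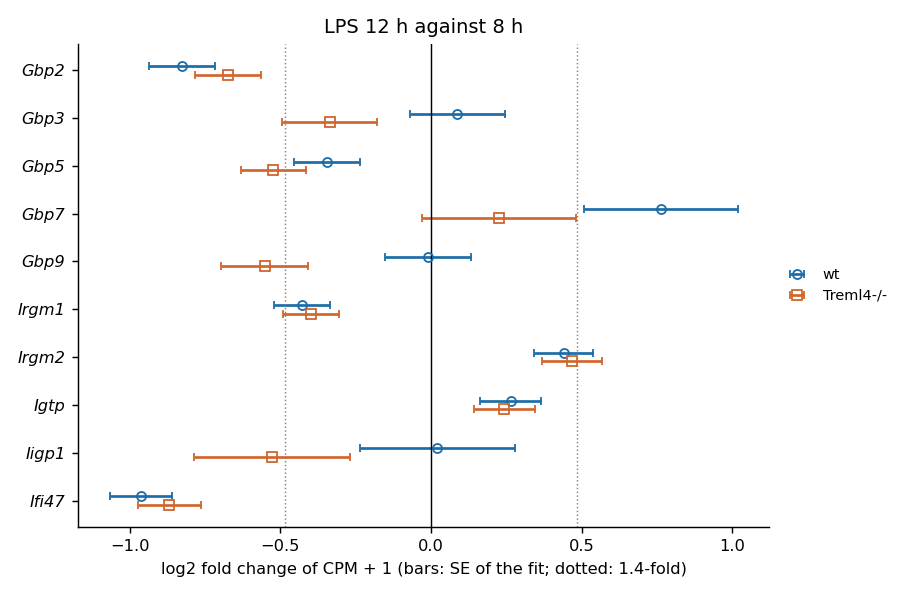
log2 fold change of CPM + 1 from 8 h to 12 h of LPS for the 10 genes in wt (circles) and Treml4-/- macrophages (squares), with bars for the SE of the fit and dotted lines at 1.4-fold. Gbp2 and Ifi47 lie past the lower line in both genotypes, and Gbp3, Gbp7, Gbp9 and Iigp1 have lower values in Treml4-/- cells, where the replicates at 8 h differed most.

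A test of whether the change from M1-8 h to M1-12 h differed between genotypes was added after the values were seen. None of the 10 genes was called (0 in limma, 0 with voom, and Gbp9 alone at an unadjusted p under 0.05, as were 3.21% of all genes), and 0.0% of all genes were. The largest differences were 0.55 ± 0.366 for Iigp1, 0.54 ± 0.361 for Gbp7 and 0.54 ± 0.203 for Gbp9 (SE, wt minus Treml4-/-, adjusted p = 0.95 for each, limma). Without replicate 1 of the Treml4-/- cells at M1-8 h they were 1.07, 1.03 and 0.72, and without replicate 2 they were 0.03, 0.04 and 0.36, none of them called. The different lists of called genes in wt and Treml4-/- cells are therefore not shown to differ.

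The comparison of wt with Treml4-/- macrophages asks whether Treml4 affects these genes. At M0 none of the 10 was called, against 0.0993% of all genes (0 in limma, 0 with voom, and Gbp5 alone at an unadjusted p under 0.05, beside 3.35% of all genes). Gbp5 was higher in wt by 0.25 ± 0.109 on the log2 scale (SE, adjusted p = 1, limma), with both wt libraries above both Treml4-/- libraries. Iigp1 had the largest difference, 0.33 ± 0.259 (SE, adjusted p = 1, limma), from 27 and 32 reads in wt against 14 and 12. The added 1 CPM compresses this difference, which was 2.26 times as a ratio of mean CPM, 1.16 on the deposited log2 CPM and 1.15 with voom, and was called in none of these fits (adjusted p = 0.51 on the deposited values, limma).

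At M1-8 h none of the 10 was called either, where 0.091% of all genes were (0 in limma, 0 with voom, and Gbp9 alone at an unadjusted p under 0.05, beside 21% of all genes). The largest differences were negative, that is lower in wt, at -0.51 ± 0.259 for Iigp1 (adjusted p = 0.28), -0.44 ± 0.144 for Gbp9 (0.17), -0.41 ± 0.255 for Gbp7 (0.36) and -0.33 ± 0.158 for Gbp3 (0.26), all SE and adjusted p from limma. Gbp9 had 175 and 207 CPM in wt against 227 and 293 in Treml4-/- cells without overlap, whereas the libraries of the other 3 genes overlapped. Gbp2 was higher in wt by 0.19 ± 0.110 and Ifi47 by 0.18 ± 0.104 (SE, adjusted p = 0.34 and 0.33, limma). Irgm1, Irgm2, Igtp and Gbp5 differed by at most 0.03. Without replicate 1 of the Treml4-/- cells at M1-8 h, 3 of the 10 were called lower in wt, namely Iigp1 (-1.03, adjusted p = 0.018, limma), Gbp7 (-0.91, adjusted p = 0.027, limma) and Gbp9 (-0.62, adjusted p = 0.050, limma). In that fit, which treats the lone library as varying like the others, 599 of all genes were called, against 11 with both replicates, and with replicate 2 left out instead 9 were called and 0 of the 10, with Iigp1 at 0.01.

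At M1-12 h none of the 10 was called, against 0.132% of all genes (0 in limma, 0 with voom, and 0 at an unadjusted p under 0.05, beside 7.55% of all genes). Differences ran from -0.03 for Irgm1 to 0.15 ± 0.109 for Gbp5 (SE, adjusted p = 0.84, limma), and Iigp1 differed by 0.04 ± 0.259 (SE). The differences of Iigp1, Gbp9, Gbp7 and Gbp3 seen at M1-8 h were thus between 0.04 and 0.12 and positive at the later time. The response to LPS did not pass the test of a difference between genotypes for any of the 10 genes at M1-8 h or M1-12 h, against 0.00827% of all genes at each (0 in limma and 0 with voom at both times). At an unadjusted p under 0.05, Iigp1 (-0.84 ± 0.366) and Ifi47 (0.36 ± 0.148) had a difference in response at M1-8 h (SE, adjusted p = 0.73 for both, limma), beside 6.67% of all genes, and 0 of the 10 had one at M1-12 h, beside 3.82%. The Iigp1 value was -1.36 without replicate 1 of the Treml4-/- cells at M1-8 h, -0.32 without replicate 2, and -1.68 on the deposited log2 CPM, and it was called in none of these fits.

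**Figure D5:**
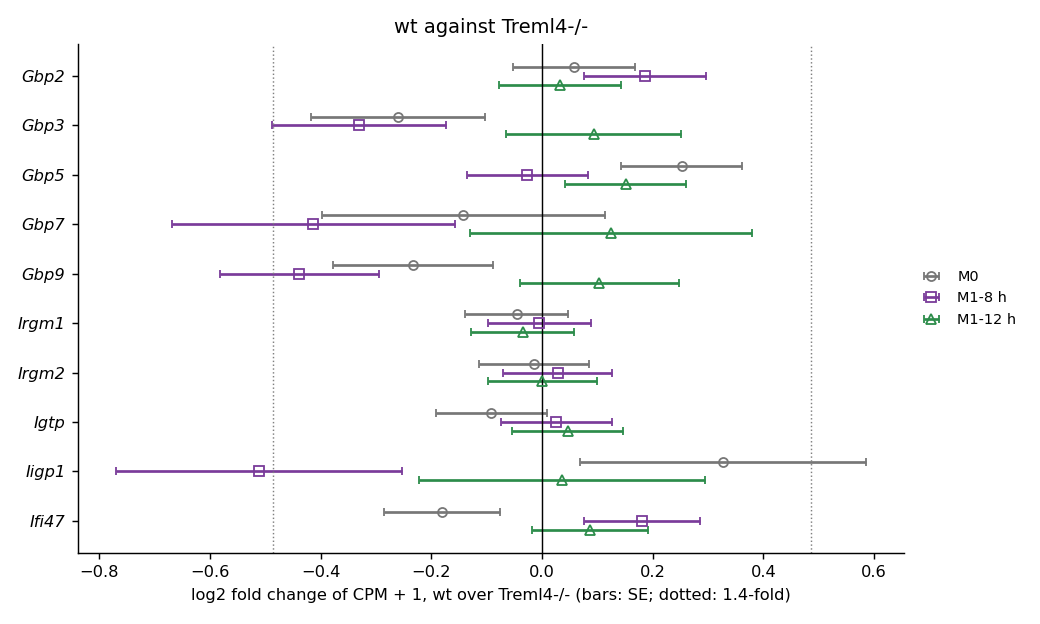
log2 fold change of CPM + 1 of wt over Treml4-/- macrophages for the 10 genes at each of the 3 time points, with bars for the SE of the fit and dotted lines at 1.4-fold. Only Iigp1 at M1-8 h, at -0.51, lies past a dotted line, and values at M1-12 h lie between -0.03 and 0.15.

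The same steps were taken for a list of other genes of the 2 families, which also held Gvin1, a GTPase gene counted in neither. Of 17 listed, 15 were in the table and 13 passed the filter on low values, and all 13 rose at 8 h and at 12 h in both genotypes. Of all genes tested, 16.3% in wt and 17.7% in Treml4-/- cells rose at 8 h, and 16.2% and 16.1% at 12 h. Their median at 8 h in wt was 5.03 on the log2 scale. The largest changes at 8 h in wt were those of Gbp4 (8.01), Tgtp2 (8.00) and Gbp6 (7.90). Gbp4, a GBP gene of the chromosome 5 cluster, had 0.517 ± 0.0761 CPM at M0, 391 ± 29.2 after 8 h and 879 ± 91.3 after 12 h in wt (SD, n = 2). From 8 h to 12 h, 5 of the 13 rose and 0 fell in wt, and 2 rose and 0 fell in Treml4-/- cells. Of all genes tested, 14.0% rose and 17.6% fell in wt, and 12.9% rose and 19.4% fell in Treml4-/- cells. The 2 rises in Treml4-/- cells were thus near the share of all genes. Gbp4 was among those that rose in wt, by 1.17 (adjusted p = 2.2e-05, limma), in contrast to Gbp2. None of the 13 was called between genotypes at M0, M1-8 h or M1-12 h (0 in limma, with 0, 4 and 0 at an unadjusted p under 0.05, beside 3.35%, 21% and 7.55% of all genes). Tgtp1 and Tgtp2, and the paired 9930111J21Rik1 and 9930111J21Rik2, are near-identical copies whose reads the counting could have split.

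Genes that carry the interferon signal were described from a list of 9 ligands, receptors and kinases. Of these 8 passed the filter, and 3 rose and 1 fell at 8 h in wt and in Treml4-/- cells. There, 60.6% and 58.1% of all genes tested fell, and 16.3% and 17.7% rose. With median of ratios scaling 7 rose and 1 fell in each genotype. Under it, 3734 of 12086 genes tested rose and 3734 fell in wt, and 3749 rose and 3928 fell in Treml4-/- cells. Ifnb1, which encodes interferon beta, had 0.00964 ± 0.0136 CPM at M0, 11.9 ± 4.16 after 8 h and 1.36 ± 0.599 after 12 h in wt (SD, n = 2). Its values in Treml4-/- cells were 0.0102 ± 0.0144, 7.87 ± 0.234 and 1.08 ± 0.0491 CPM, and the 8 h difference of 0.51 between genotypes was not called (adjusted p = 0.21, limma). From 8 h to 12 h its log2 value fell by 2.44 in wt and by 2.09 in Treml4-/- cells (adjusted p = 6.9e-06 and 1.9e-05, limma). Ifng, which encodes interferon gamma, was at 0 CPM in all libraries except for 0.0202 CPM in 1, which is below the level of 3 reads. Jak2, a kinase of the interferon gamma receptor, rose by 4.26 at 8 h in wt, and Ifngr1, a chain of that receptor, fell by 3.39 to 13.9 ± 0.613 CPM (SD, n = 2).

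Of 12 transcription factors and inhibitors of interferon signalling, 9 rose and 1 fell at 8 h in each genotype, and 10 rose and 1 fell at 12 h. At 8 h, 16.3% of all genes tested rose in wt and 17.7% in Treml4-/- cells, while 60.6% and 58.1% fell. At 12 h, 16.2% and 16.1% rose, while 60.4% fell in wt and 59.6% in Treml4-/- cells. The gene that fell was Irf3, a factor that acts ahead of interferon beta, and its fall was not called under the other scalings. At 8 h in wt it was -0.86, against -0.05 by median of ratios, where 11 of the 12 rose and 0 fell, and -0.19 by quantile normalization, where 10 rose and 0 fell. Of all 12086 genes tested, 3734 rose and 3734 fell there by median of ratios, and 3252 rose and 4272 fell by quantile normalization. The largest rises at 8 h in wt were those of 3 inhibitors, Socs1 (7.03), Usp18 (6.94) and Socs3 (6.31). Usp18, which damps signalling from the interferon alpha and beta receptor, went from 6.42 ± 0.737 CPM at M0 to 907 ± 2.63 after 8 h and 815 ± 76.9 after 12 h in wt (SD, n = 2). Stat2 and Irf1, which encode transcription factors of the interferon response and were named after their values were seen, had log2 fold changes of 3.79 and 3.55 at 8 h in wt. Irf7 rose more (5.56), whereas Irf9 (0.31) and Irf5 (-0.16) were the 2 of the 12 not called there with scaling to library size. None of the 12 was called between genotypes at M0, M1-8 h or M1-12 h (0 in limma, with 2, 5 and 3 at an unadjusted p under 0.05, beside 3.35%, 21% and 7.55% of all genes).

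The genes outside the 10 whose course over the 12 libraries was closest to the median course of the 10 were sought by the root mean square difference on the log2(CPM + 1) scale, relative to each gene's own M0 mean. They were Fgl2 (0.23), Procr (0.24), Batf2 (0.25), Socs3 (0.25) and Gm12250 (0.27), itself of the IRG family. Of the members, Gbp3 (0.21) and Ifi47 (0.29) were closest to their own median course, and Gbp5 (2.32) and Iigp1 (2.54) were farthest from it.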

How the data were processed

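The authors prepared stranded, poly(A)-selected libraries, sequenced paired ends of 126 bases, and used STAR for alignment and Subread for counting (CCBR RNAseq workflow). The submitters' processing notes name STAR and the build mm10. The annotation and the strand setting of the counting are not given in the sources used here. The authors deposited log2 CPM, that is read counts per gene scaled to library size, with a prior of 0.25 reads. Removing the prior gave whole reads for 100% of values in each library (tolerance 0.01 reads), and log2 values recomputed from them differed from the deposited ones by at most 5.7e-14. The design had assumed linear CPM, so the values were first turned back into CPM.

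CPM were tested as log2(CPM + 1), which understates changes of low genes, with limma 3.58.1 in R 4.3.3. The fit had a mean for each of the 6 conditions and a variance trend over all 12 libraries, on the 12086 genes that reached 1 CPM in 2 or more libraries, with Benjamini-Hochberg adjustment over them. Called genes had an adjusted p under 0.05 and a change of at least 1.4-fold. Within a time point, 2 replicates against 2 leave no exact permutation test that could reach this threshold. The test was also run on simulated counts with the same spread for every gene and condition. That run does not cover the unequal spread between replicates seen in these data. Replicates were not duplicates of one library, since chi-square over its degrees of freedom was 12.0 to 55.6, and counting error alone does not cover differences between cultures.

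The 10 genes, the gene lists and the tests were chosen with earlier results of these data known. From a list, the genes named with values were the 3 with the largest change at 8 h in wt. Promoter windows came from RefSeq (GRCm38.p6), and exons, lengths and GC content from GENCODE M21 (GRCm38). Python 3.11.15 with pandas 2.3.3 and numpy 2.4.6 was used for tables. Alternatives were other pseudocounts, filters, scalings and variance models, voom on whole reads, only the libraries compared, no minimum fold, the replicate number as a block, and leaving out each library.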

Additional observations from a re-analysis of the deposited data

How the results depend on the processing

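Over 26 alternatives, 3090 of 3120 values of the log2 fold change kept their side of the threshold. Another 10 were no longer called, 20 became called and 0 turned from a call in one direction into the other. Of the 3090, 76 changed sign, each of them called in neither fit. With no minimum fold change, 6 genes in place of 3 were called from M1-8 h to M1-12 h in wt. When single libraries were left out, the count for this comparison ran from 3 to 7 in Treml4-/- macrophages, and between genotypes at M1-8 h it ran from 0 to 3, with both highest counts reached without replicate 1 of the Treml4-/- cells at M1-8 h. All counts of the 10 genes in the other comparisons were within 1.5 times those reported. With the replicate block, 3 genes were called from M1-8 h to M1-12 h in wt, 4 in Treml4-/- cells and 0 between genotypes at each time point, so it changed no call count. Same-numbered replicates of the 2 genotypes deviated together by a correlation of -0.26 at M0, 0.30 after 8 h and 0.06 after 12 h, and were taken to share only a number. Within a genotype, the titles use the same numbers at each time, but do not say whether those libraries share an animal. Between M0 and 8 h, M0 and 12 h, and 8 h and 12 h, their correlations were 0.12, 0.06 and 0.41 in wt. In Treml4-/- cells they were 0.46, -0.20 and -0.27. The main fit left any such pairing out, and a replicate block within each genotype changed no call of the 10 genes. With a replicate block for each time point, an alternative added after seeing the data, Iigp1 was called lower at M1-12 h than at M1-8 h in Treml4-/- cells, by -0.53 (adjusted p = 0.017, limma). With the numbers crossed at M0 as well, 421 genes in all were called between genotypes at M1-8 h, and 0 of the 10. Counts over all genes were less stable than those of the 10. Between genotypes at M1-8 h, 11 genes were called, against 599 without replicate 1 and 9 without replicate 2 of the Treml4-/- cells, 21 without replicate 1 of wt, and 5 with only the libraries compared. At M0 the count of 12 moved to 220 without replicate 1 of wt, and to 7 without replicate 1 of Treml4-/- cells or with only the libraries compared. At M1-12 h the count of 16 moved to 79 without replicate 1 of wt, and the lowest was 6. The difference in the 12 h response moved from 1 to 33 genes without replicate 1 of wt at M0, and that in the 8 h response ranged from 0 to 3. The causes were not tested. With 2 libraries per condition, and 12 to 32 reads for Iigp1 at M0, small differences between genotypes could not be detected.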

Other observations

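Other gene groups work with GBP and IRG proteins. Of 8 inflammasome genes, 5 rose and 0 fell at 8 h of LPS in wt, and 6 rose and 0 fell in Treml4-/- macrophages, with a median log2 change of 2.07 in wt beside -0.74 for all genes tested, of which 16.3% rose in wt and 17.7% in Treml4-/- cells. With median of ratios scaling 8 rose and 0 fell in each genotype. Under it, 3734 of 12086 genes tested rose and 3734 fell in wt, and 3749 rose and 3928 fell in Treml4-/- cells. The largest were Il1b (7.61), Casp4 (3.68), which encodes caspase-11, the sensor of cytosolic LPS, and Nlrp3 (3.11). Casp4 went from 15.1 ± 0.134 CPM at M0 to 206 ± 13.3 CPM at M1-8 h in wt (SD, n = 2). From 8 h to 12 h, 0 rose and 2 fell in wt, and 0 rose and 3 fell in Treml4-/- cells. Of all genes tested, 14.0% rose and 17.6% fell in wt, and 12.9% rose and 19.4% fell in Treml4-/- cells.

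Of 13 genes of autophagy conjugation and ubiquitin tagging, which help to direct these GTPases to vacuoles, 2 rose and 7 fell at 8 h in wt, with a median of -0.56 beside -0.74 for all genes tested. These counts are near the shares of all genes tested, of which 16.3% rose and 60.6% fell. With median of ratios scaling 6 rose and 2 fell (median 0.27, beside -0.03 for all genes), and with quantile normalization 3 rose and 5 fell, so the direction of this group depended on the scaling. Of all 12086 genes tested, 3734 rose and 3734 fell by median of ratios, and 3252 rose and 4272 fell by quantile normalization. Trim21 rose by 2.39, whereas Atg7 fell by 2.24, from 113 ± 0.103 to 23.1 ± 2.12 CPM, and Gabarapl1 fell by 2.00 (SD, n = 2). These 3 were called in the same direction under both other scalings, with Atg7 at -1.41 and Gabarapl1 at -1.16 by median of ratios. Of 5 genes of enzymes that attach lipid anchors to proteins or trim and methylate the anchored end, 4 fell and 1 rose at 8 h in wt. Of all genes tested, 60.6% fell and 16.3% rose, and the median was -1.14 beside -0.74 for all genes. Fntb, part of a transferase, fell by 1.49, Icmt, the methyltransferase, by 1.46 and Rce1, the protease, by 1.14 on the log2 scale. The gene that rose was Pggt1b, part of another transferase, by 0.62 (1.35 by median of ratios and 1.55 by quantile normalization). Which of these enzymes act on Gbp2 and Gbp5 in these cells was not tested. By median of ratios 2 of the 5 fell and 1 rose, with Fntb at -0.78 and Icmt at -0.63, and Rce1 was not called (-0.35). None of the genes on these 3 lists was called between genotypes at any of the 3 time points (0 in limma). At an unadjusted p under 0.05, 5 inflammasome genes, 4 autophagy genes and 0 prenylation enzymes differed at M1-8 h, where 21% of all genes did, 1 inflammasome gene differed at M1-12 h, and 0 genes of the 3 lists differed at M0. Voom on whole reads, median of ratios scaling and quantile normalization also called 0 at each time.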
